A study of Homo sapiens with 6 samples.

Results

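The cytosolic ribosome of human cells carries a set of ribosomal proteins named RPS for the small subunit and RPL for the large subunit. The 76 genes described here are the entries of the deposited count table whose symbol is RPL or RPS followed by a number and at most 1 letter A or X, together with RPSA, RPLP0, RPLP1 and RPLP2. They are 76 of 50883 entries in the table, 30 for the small subunit and 46 for the large subunit. All 76 passed the filter on low counts and were among the 18420 genes tested. FAU and paralogues such as RPL22L1 fall outside this naming rule and are described separately.

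The RNA came from D283, an established line of human medulloblastoma, a tumour of the cerebellum. Cells were infected with lentivirus expressing GFP and a guide RNA, and were collected after 7 days in culture. In 3 control libraries the guide was non-targeting, and in 3 libraries labelled OTX2 knockout it was directed at OTX2, which encodes a homeodomain protein active in embryonic brain and retina. Both groups therefore carried virus, GFP and a guide. The source of the nuclease, the guide sequences, the share of edited cells and any sort for GFP were not stated in the labels. Each replicate was its own infection of the 1 line, and the p-values below therefore reflect variation among infections, not among tumours.

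Ribosomal proteins are synthesised in the cytoplasm, imported into the nucleolus and assembled with rRNA, and their mRNAs are among the most abundant of a growing cell. Many of these mRNAs begin with a C followed by a run of pyrimidines, the 5′ terminal oligopyrimidine (TOP) tract, through which mTORC1 and LARP1 control their translation. Free RPL5 and RPL11, bound to 5S rRNA, can bind and hold the ubiquitin ligase MDM2 when ribosome assembly is disturbed. MYC, an oncogene of Group 3 medulloblastoma, is known to promote transcription of ribosomal protein genes and of rRNA.

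Library totals ranged from 54540645 to 62166870 counts, and every pair of replicates differed by more than sampling noise. All 8 of the markers listed for Group 3 and photoreceptor-like medulloblastoma were detected, and all 8 fell. OTX2 itself was measured at 1002, 979 and 909 CPM (counts relative to library size, here after edgeR's TMM scaling) in control replicates 1 to 3 and at 765, 824 and 887 CPM in knockout replicates 1 to 3. It fell by 0.22 on the log2 scale (SE 0.06, adjusted p = 0.00646, edgeR's quasi-likelihood F test, adjusted by Benjamini-Hochberg). Frameshift edits need not remove mRNA, so this value checks the labels only in part. Control replicate 1 stood apart from the other libraries: 0.305% of its counts were mitochondrial rRNA, against 0.0675% to 0.111% in the other 5. Of markers of other cell types, the 5 immune markers summed to at most 0.605 CPM per library, with CD3E at 0, and the 2 hepatic markers to at most 0.370 CPM. The 3 neural markers summed to between 39.5 and 43.8 CPM in controls and between 151 and 179 CPM in knockouts, with TUBB3 at 0 in both groups. The 3 epithelial markers summed to between 22.2 and 26.5 CPM in controls and 49.4 and 60.6 CPM in knockouts, the 4 fibroblast markers to between 14.2 and 15 and between 19.8 and 20.9 CPM, and the 3 endothelial markers to between 2.18 and 3.25 and between 5.17 and 6.15 CPM. Of these 20 listed markers, TUBB3, CD3E, CD68, AIF1, CDH5, COL3A1, CDH1, ALB and APOA1 did not pass the filter on low counts and were not tested. Those tested were 2 neural, 2 immune, 2 endothelial, 3 fibroblast and 2 epithelial markers. Of these tested markers, 7 rose and 0 fell, where 21.2% of all tested genes rose and 18.5% fell. The part of these shifts in the results below was not tested.

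Ribosomal protein mRNAs were modestly and broadly lower in the OTX2 knockout libraries. Of the 76 genes, 48 fell, 0 rose and 28 did not pass the test (adjusted p under 0.05, edgeR's quasi-likelihood F test, Benjamini-Hochberg adjustment over all tested genes). Over all 18420 tested genes, 18.5% fell and 21.2% rose, 39.7% in either direction. Against a minimum change of 1.5-fold, 0 of the 76 fell or rose in edgeR, where 0.852% of all tested genes fell and 5.7% rose. The log2 fold change was negative for 74 of the 76 genes, with a median of -0.15 and a range from -0.34 to 0.06, and the median change in mean CPM was -9.62%. Over all tested genes the median was 0.01 and 49.1% were negative. Without multiple-testing adjustment, 61 of the 76 had a p under 0.05, and 0 of these were rises. The matching share of all tested genes was not counted, and is at least the 39.7% that passed after adjustment. The 48 genes that fell ranged from -0.34 to -0.13 on the log2 scale, and the 28 that did not pass from -0.14 to 0.06. In bulk RNA, fewer cells of a kind and less RNA per cell cannot be told apart.

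Highly expressed genes as a whole also leaned downwards, and nearly all ribosomal protein genes are highly expressed. Among 2147 other genes with a mean of at least 100 CPM, the median log2 fold change was -0.09, 71.5% were negative, 39.9% fell and 12% rose. Of the 72 ribosomal protein genes with a mean of at least 100 CPM, 46 (63.9%) fell. The sets share this lower bound only and were not matched for level above it. The ribosomal protein genes also covered a narrow range: the middle of their distribution ran from -0.18 to -0.11 on the log2 scale (lower to upper quartile), against -0.21 to 0.02 for the other highly expressed genes.

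**Figure D1:**
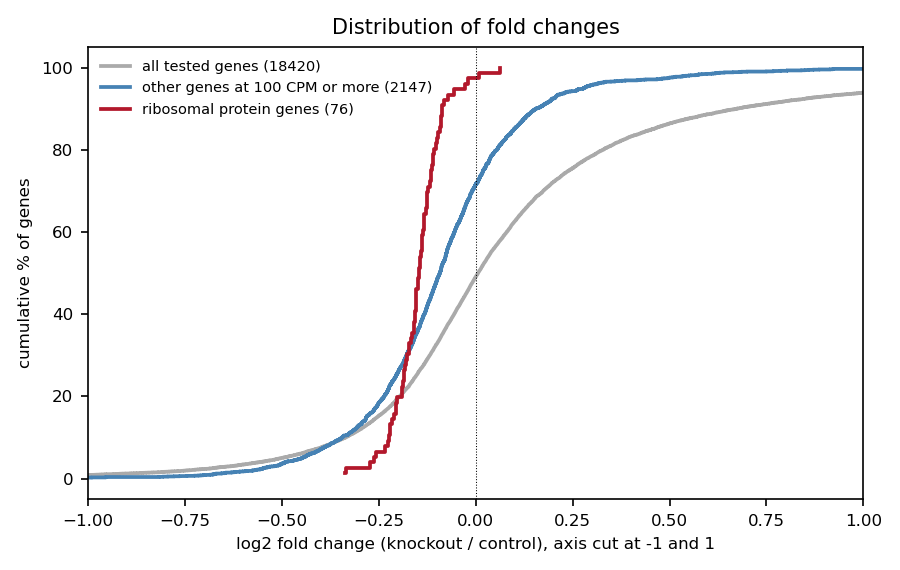
Cumulative percentage of genes (y axis) by log2 fold change of OTX2 knockout over control (x axis, cut at -1 and 1) for all tested genes, other genes at a mean of at least 100 CPM, and the 76 ribosomal protein genes. The curve for ribosomal protein genes is steep, with its median at -0.15, and lies between -0.34 and 0.06, while the curve for other highly expressed genes has its median at -0.09.

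For 60 of the 76 genes every knockout library was below every control library, and for 0 was every one above. Over all tested genes, 23% were lower without overlap and 26.2% were higher without overlap. Of the 48 genes that fell, 45 had non-overlapping libraries, and RPS16, RPSA and RPLP0 overlapped. Summed over the 76 genes, ribosomal protein mRNA made up 9.64%, 10.2% and 9.95% of all counts in control replicates 1, 2 and 3 and 9.28%, 9.57% and 9.43% in knockout replicates 1, 2 and 3. Every knockout library lay below every control library, by a small margin between knockout replicate 2 and control replicate 1. After TMM scaling the sums were 98057, 106376 and 101749 CPM in the controls and 89102, 93726 and 92579 CPM in the knockouts, a log2 ratio of -0.15. With library totals alone the log2 ratio was -0.07.

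Control replicate 2 held the highest value of all 6 libraries for 65 of the 76 genes, and knockout replicate 1 held the lowest for 57. Control replicate 1, the library with more mitochondrial rRNA, was the lowest control for 55 genes. Without control replicate 1, 60 fell and 0 rose (background 19.3% and 20.4%). The number that fell was 17 without control replicate 2 (background 14.3%), 29 without control replicate 3 (16%), 22 without knockout replicate 1 (14.3%) and 28 without knockout replicate 2 (14%), and without knockout replicate 3, 45 fell and 0 rose (18.4% and 20.2%). A log2 fold change below 0 was found in all 6 of these fits for 72 of the 76 genes.

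**Figure D2:**
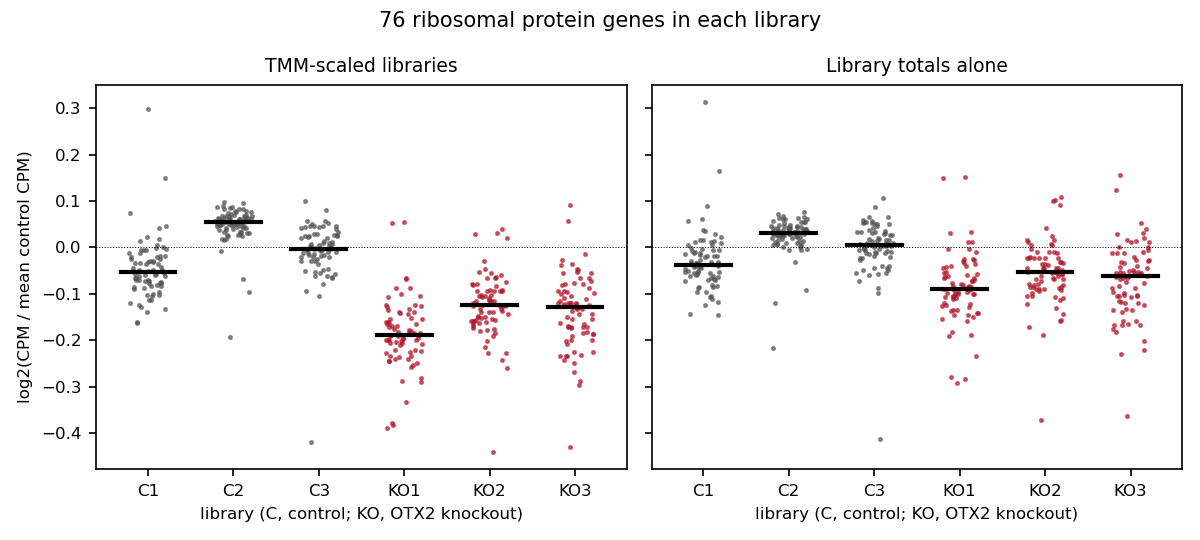
Each point is 1 ribosomal protein gene in 1 library, as the log2 ratio of its CPM to the mean control CPM (y axis), with the median as a bar, for TMM-scaled libraries (left) and library totals alone (right). The knockout medians lie at -0.19, -0.12 and -0.13 with TMM scaling and at -0.09, -0.05 and -0.06 with library totals alone, in both cases below the 3 control medians.

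The scaling set the size of the difference. TMM scaling and library totals alone differ in where they place the middle of all genes, at a log2 fold change of 0.01 and 0.08 respectively. With library totals alone, 16 of the 76 genes fell (background 11%) and 0 rose (background 28.3%), at a median of -0.07 on the log2 scale. These 16 are the same 16 genes that fell in each of the 6 fits leaving out 1 library: RPL26, RPL39, RPL12, RPL13, RPS2, RPL9, RPL8, RPL3, RPL13A, RPLP1, RPL36, RPLP2, RPL27A, RPS21, RPS6 and RPL27. By subunit, 13 of the 46 large-subunit genes and 3 of the 30 small-subunit genes are in this set. The difference between the subunits was not tested, and in the TMM fit both had a median log2 fold change of -0.15, with 27 of 46 large-subunit and 21 of 30 small-subunit genes falling.

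**Figure D3:**
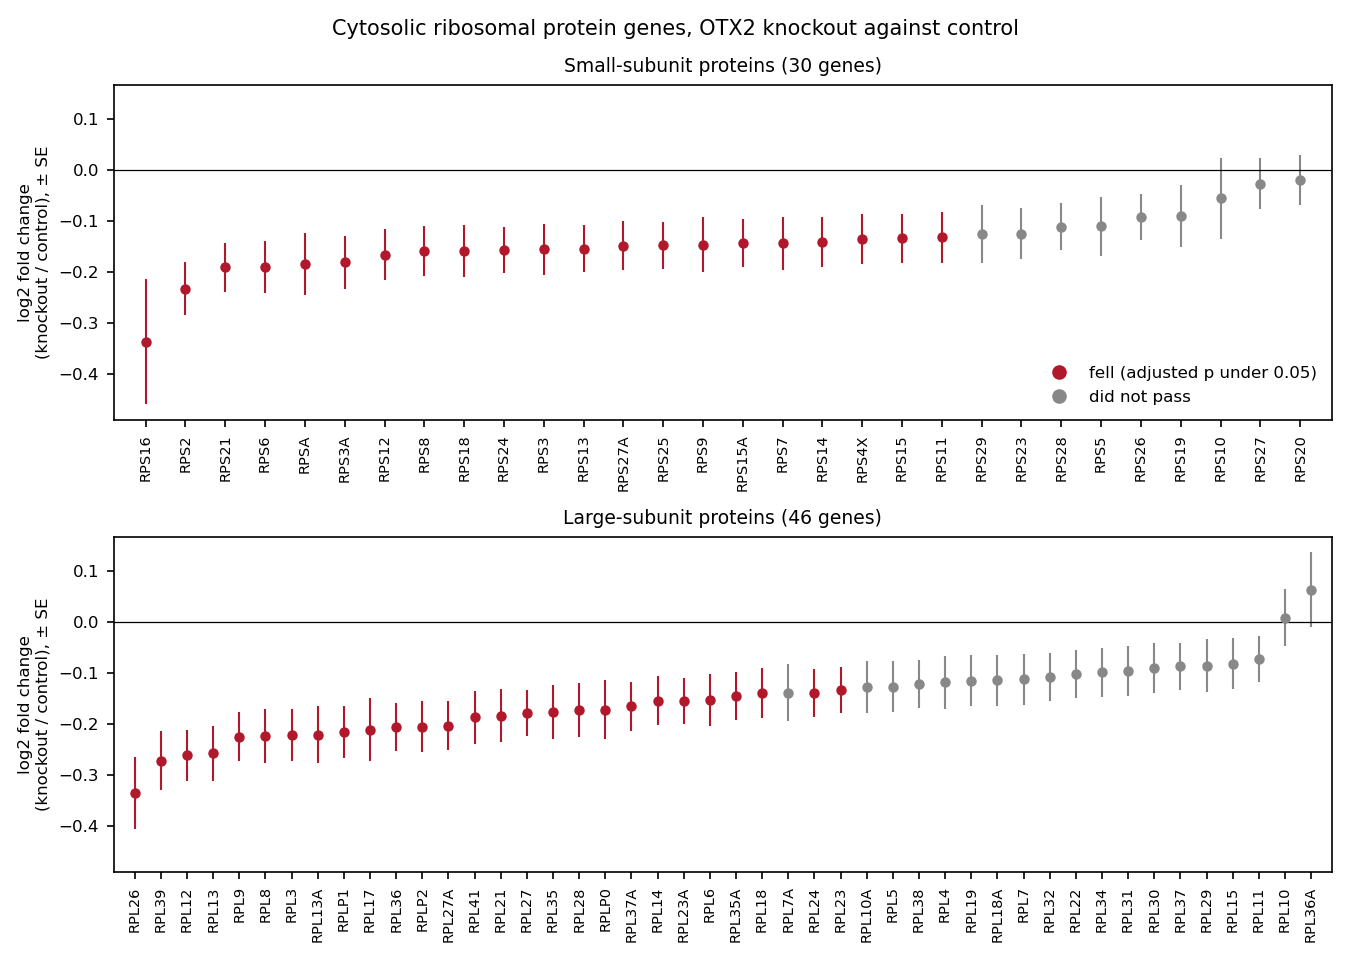
Log2 fold change of OTX2 knockout over control with its SE (y axis) for each small-subunit gene (top) and large-subunit gene (bottom), ordered by value, with genes that fell in red and genes that did not pass the test in grey. The values run from -0.34 to 0.06, and only RPL10 and RPL36A lie above 0.

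The members were further compared for the start of their transcripts, since the TOP tract is the sequence feature best known to be shared by this family. RefSeq promoters (GRCh38.p14) were matched for 62 of the 76 genes. Counting from the annotated first base, 46 of the 62 (74.2%) had at least 1 start with a C and at least 5 pyrimidines in a row, against 5.14% of all 27305 genes in the promoter table and 6.9% of the 10702 other tested genes. The tract was 5 to 19 bases long, with a median of 8. The following windows hold 10 bases before the annotated start and 20 from it on, with the pyrimidine run from the first base in capitals. They are shown for the 4 genes with the lowest values that held in every fit leaving out 1 library, for RPS6 and RPLP1, and for 3 genes that did not pass.
RPL26: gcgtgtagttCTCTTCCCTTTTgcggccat
RPL39: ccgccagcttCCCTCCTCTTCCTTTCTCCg
RPL12: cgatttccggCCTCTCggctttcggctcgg
RPL13: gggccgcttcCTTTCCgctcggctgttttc
RPS6: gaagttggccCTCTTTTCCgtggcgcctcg
RPLP1: ggcgcgagagCCCCTTTCCTCagctgccgc
RPL11: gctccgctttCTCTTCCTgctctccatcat
RPS27: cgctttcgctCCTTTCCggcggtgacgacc
RPL10: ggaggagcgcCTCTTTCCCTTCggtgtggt
The windows lie at chr17:8383174-8383203 (minus strand), chrX:119791611-119791640 (minus strand), chr9:127451387-127451416 (minus strand), chr16:89560672-89560701 (plus strand), chr9:19380217-19380246 (minus strand), chr15:69452808-69452837 (plus strand), chr1:23691796-23691825 (plus strand), chr1:153990752-153990781 (plus strand) and chrX:154398367-154398396 (plus strand). RPL11, RPL13 and RPL10 have more than 1 annotated start, and the start with the tract is shown.

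Genes that fell and genes that did not pass occurred both with and without a TOP tract at an annotated start. The count needs a C at exactly that base, so mRNAs of genes counted as without a tract may still begin with one. In RPL10A and RPL4, for example, a pyrimidine run lies a few bases downstream of the annotated start. Of the 46 genes with a tract 33 fell (median -0.16 on the log2 scale), and of the 16 without a tract 8 fell (median -0.13). Of the 14 genes with no promoter entry, 7 fell (median -0.13), and no test between these groups was made. RPL27, RPL9 and RPL3 fell although none of their annotated starts carries such a tract. The windows of RPL9 and RPL3, at chr4:39458903-39458932 (minus strand) and chr22:39319604-39319633 (minus strand), are shown for contrast.
RPL9: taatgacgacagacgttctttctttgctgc
RPL3: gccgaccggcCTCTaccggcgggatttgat
RPL3 begins with 4 pyrimidines, below the minimum of 5. In RPL9 the pyrimidine-rich run lies a few bases downstream of the annotated start.

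Promoters of the family also share motifs upstream of the start. In the 300 bases from 250 before to 50 after the start, searched on both strands, CCGGAAG, the core of the ETS family that includes GABPA, was present in 22 of the 62 genes (35.5%) and in 12.2% of all genes in the table. CTCGCGAG, a palindrome common at housekeeping promoters, was present in 6 genes (9.68%, against 1.23%), namely RPL17, RPL26, RPL27A, RPL4, RPS19 and RPS6. AAGATGGC, bound by YY1, was present in 9.68% against 3.52%, CACGTG, the E-box bound by MYC, in 6.45% against 8.77%, and TATAAA in 8.06% against 14%. TAATCC, the core of the sites of OTX2 and CRX, was present in 5 genes, RPL14, RPL35A, RPL37A, RPL4 and RPS15, which is 8.06% against 7.81% of all genes. Each motif was counted on its own, so overlapping matches of different motifs were each counted. Unlike the TOP tract, the motifs were not counted over the other tested genes alone. RPL26, RPL27A and RPS6 hold both CCGGAAG and CTCGCGAG, and the 120 bases up to the starts of RPL26 and RPS6 are shown with these matches in capitals (chr17:8383194-8383313 (minus strand) and chr9:19380237-19380356 (minus strand)).
RPL26: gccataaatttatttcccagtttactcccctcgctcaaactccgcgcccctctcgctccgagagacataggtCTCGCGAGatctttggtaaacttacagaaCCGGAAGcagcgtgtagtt
RPS6: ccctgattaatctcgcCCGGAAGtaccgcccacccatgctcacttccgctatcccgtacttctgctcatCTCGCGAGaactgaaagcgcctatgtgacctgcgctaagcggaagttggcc
Of the 22 genes with CCGGAAG 14 fell (median -0.14 on the log2 scale), and 4 of the 5 genes with TAATCC fell, where 48 of the 76 members and 18.5% of all tested genes fell.

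The large-subunit genes with the lowest values were RPL26, RPL39, RPL12 and RPL13. RPL26, at the rim of the exit tunnel, was measured at 104, 87.9 and 89.7 CPM in control replicates 1 to 3 and at 72.3, 69.2 and 81.8 CPM in knockout replicates 1 to 3. All 3 knockout values lay below the lowest control, and RPL26 fell by 0.34 on the log2 scale (SE 0.07, adjusted p = 0.0014, edgeR's quasi-likelihood test). RPL39, a short protein that lines the tunnel, stood at 609, 666 and 668 CPM in controls and 497, 541 and 571 CPM in knockouts, a log2 fold change of -0.27 (adjusted p = 0.00146, edgeR). Of the 8 proteins listed for the rim and wall of the tunnel, 5 fell, with a median of -0.17, where 27 of all 46 large-subunit genes (58.7%) fell. RPL17, another tunnel protein, was counted at 20.7, 21.7 and 23 CPM in controls and 19.99, 18.6 and 17.8 CPM in knockouts. It fell by 0.21 (adjusted p = 0.0133, edgeR). This call did not hold when scaled by library totals (adjusted p = 0.127, edgeR) or with a correction for GC content and length (adjusted p = 0.226, edgeR).

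RPL12, which forms the base of the stalk with the P proteins, was one of the most abundant members. It was measured at 2671, 2824 and 2619 CPM in controls and 2147, 2309.5 and 2313 CPM in knockouts, with no overlap, and fell by 0.26 (SE 0.05, adjusted p = 0.000738, edgeR's quasi-likelihood test). The P stalk recruits the GTPase factors of translation, and its 3 genes all fell, with a median of -0.21. Of all 46 large-subunit genes 58.7% fell, and of all tested genes 18.5%. RPLP1 was at 922, 964 and 869.6 CPM in controls and 787, 822 and 763 CPM in knockouts, RPLP2 at 762, 839 and 843 CPM and 691, 713 and 715 CPM, and RPLP0 at 2854, 3314 and 3223 CPM and 2713, 2869.9 and 2753 CPM. The RPLP1 and RPLP2 libraries did not overlap, whereas the highest RPLP0 knockout lay just above the lowest control, replicate 1. The log2 fold changes were -0.22, -0.21 and -0.17, and only RPLP0 lost its call when a library was left out, for example at an adjusted p of 0.124 without control replicate 2 (edgeR). RPLP0 also did not pass with library totals alone (adjusted p = 0.144, edgeR).

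Other large-subunit genes with named roles were measured as follows. RPL3, which reaches towards the catalytic centre, was at 3405, 3666 and 3349.8 CPM in controls and 2906, 3077 and 2952 CPM in knockouts (-0.22 log2, adjusted p = 0.00258, edgeR). RPL8, a conserved core protein next to it, was at 1203, 1265 and 1155 CPM in controls and 1035, 1084 and 983 CPM in knockouts (-0.22 log2, adjusted p = 0.00306, edgeR). Both genes had non-overlapping libraries. RPL9, near the factor-binding site, was at 2153, 2257 and 2166 CPM in controls and 1793, 1889.9 and 1944 CPM in knockouts, and fell by 0.22 (adjusted p = 0.00173, edgeR). RPL13, a protein whose variants cause a skeletal dysplasia, was at 826, 942 and 939 CPM in controls and 739, 763 and 763 CPM in knockouts, and fell by 0.26 (adjusted p = 0.0015, edgeR). RPL13A, which also acts in the GAIT complex of translational silencing, was at 3006, 3473 and 3325 CPM in controls and 2748, 2886 and 2777 CPM in knockouts (-0.22 log2, adjusted p = 0.00521, edgeR). The groups did not overlap for RPL9, RPL13, RPL13A or RPL41. RPL41, with a coding sequence of only 25 codons, was at 589.6, 652 and 638 CPM in controls and 538, 578 and 536 CPM in knockouts (-0.19 log2, adjusted p = 0.00989, edgeR). RPL41 did not pass with library totals alone (-0.11 log2, adjusted p = 0.0757), without control replicate 2 (adjusted p = 0.0552) or with the GC and length correction (-0.07 log2, adjusted p = 0.248), all by edgeR.

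**Figure D4:**
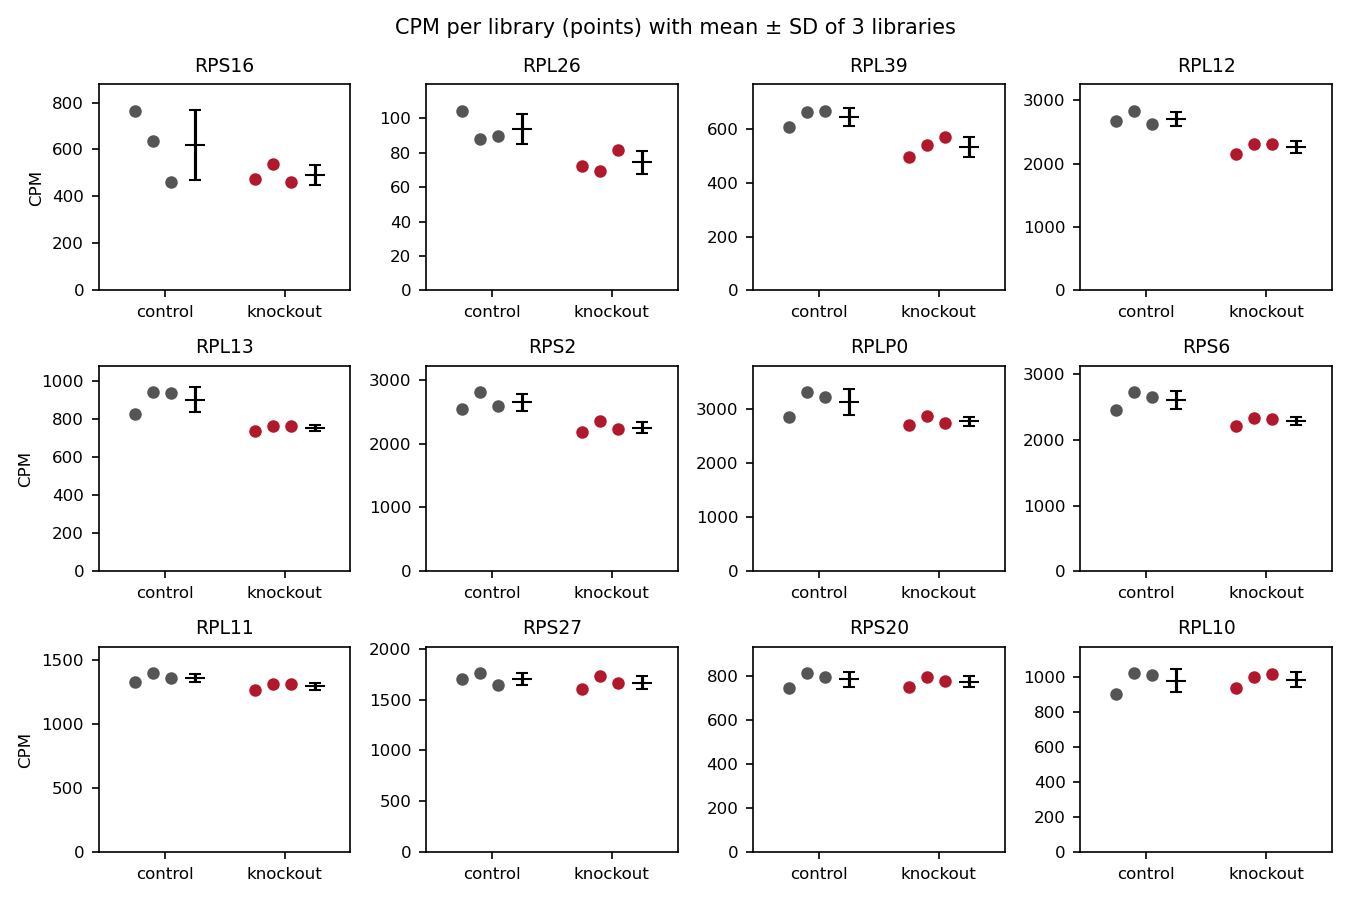
CPM in each library (points, replicates 1 to 3 from left to right) with the mean ± SD of 3 libraries, for 12 ribosomal protein genes in control (grey) and OTX2 knockout (red). RPL26, RPL39, RPL12, RPL13, RPS2 and RPS6 show separated groups, RPS16 has widely spread controls, and RPS27, RPS20 and RPL10 overlap.

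Among small-subunit genes RPS16 had the lowest value and the widest spread. RPS16, whose tail reaches the tRNA in the P site, was measured at 762, 634 and 464 CPM in controls and 473, 539 and 460.2 CPM in knockouts, and 1 control lay within the knockout range. Its control coefficient of variation was 24.2%, against a median of 4.49% over the 76 genes. It fell by 0.34 (SE 0.12, adjusted p = 0.0397, edgeR), but was at -0.16 with an adjusted p of 0.176 without control replicate 1 and at an adjusted p of 0.216 in DESeq2. RPS2, at the mRNA entry channel, had groups that did not overlap, with 2538, 2800.2 and 2592 CPM in controls and 2174, 2351 and 2225 CPM in knockouts. It fell by 0.23 (SE 0.05, adjusted p = 0.00239, edgeR), and 6.63% of the joint counts of RPS2 and its pseudogenes lay in pseudogene entries.

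RPS6, the substrate of the S6 kinases downstream of mTORC1, was at 2462, 2725 and 2653 CPM in controls and 2213, 2336 and 2321 CPM in knockouts, and fell by 0.19 (adjusted p = 0.00764, edgeR), but did not pass with the GC and length correction (-0.09 log2, adjusted p = 0.138, edgeR). RPS3, which lines the mRNA entry, was at 1939, 2151 and 2018 CPM in controls and 1802, 1889.8 and 1789 CPM in knockouts (-0.16 log2, adjusted p = 0.0236, edgeR). RPSA, also known as the laminin receptor, was at 1385, 1659 and 1607 CPM in controls and 1346, 1404 and 1343 CPM in knockouts (-0.18 log2, adjusted p = 0.0256, edgeR). RPS6 and RPS3 did not overlap between groups, while the highest RPSA knockout exceeded the lowest control. RPS18, in the head of the subunit, was at 2404, 2615 and 2481 CPM in controls and 2134, 2281 and 2302 CPM in knockouts (-0.16 log2, adjusted p = 0.0213, edgeR). RPS27A, made as a fusion with ubiquitin, was at 1261, 1358 and 1314 CPM in controls and 1142, 1202 and 1206 CPM in knockouts (-0.15 log2, adjusted p = 0.0225, edgeR). RPS14, whose loss of 1 copy underlies the anaemia of the 5q- syndrome, was at 1204, 1328 and 1279 CPM in controls and 1119, 1173 and 1163 CPM in knockouts (-0.14 log2, adjusted p = 0.0326, edgeR). None of RPS18, RPS27A, RPS14 and RPS4X overlapped between groups. The X-linked RPS4X was at 1329.7, 1419.8 and 1326 CPM in controls and 1187, 1273 and 1250.1 CPM in knockouts (-0.14 log2, adjusted p = 0.0392, edgeR). The calls of RPS3, RPSA, RPS18, RPS27A, RPS14 and RPS4X were lost without control replicate 2 and with library totals alone. With the GC and length correction RPSA (adjusted p = 0.0979), RPS18 (0.277), RPS27A (0.451) and RPS4X (0.262) did not pass, all by edgeR. RPS14 still passed with that correction (adjusted p = 0.0329, edgeR).

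Neither protein gene of the 5S ribonucleoprotein, which binds MDM2 when it is not built into ribosomes, passed the test in the reported fit. RPL5 was measured at 2028, 2202 and 2106 CPM in controls and 1851, 1978 and 1975 CPM in knockouts, at -0.13 log2 (SE 0.05, adjusted p = 0.0563, edgeR). It passed in DESeq2 (adjusted p = 0.0272) and limma-voom (adjusted p = 0.0399), but not with library totals alone (adjusted p = 0.351, edgeR). RPL11 was measured at 1327, 1394 and 1356 CPM in controls and 1261, 1309 and 1308 CPM in knockouts, at -0.07 log2 (SE 0.05, adjusted p = 0.229, edgeR). For both genes every knockout library lay below every control library, so the values leaned the same way as the rest. Of genes next to this complex, CDKN1A, a cell cycle inhibitor, rose from 150.2, 179 and 181 CPM to 418, 390.1 and 355 CPM (1.19 log2, adjusted p = 6.7e-09, edgeR). MDM2 rose (0.13 log2, adjusted p = 0.0357), and its relative MDM4 (-0.26, 0.00214) and the nucleolar RPL11 anchor GLTSCR2 (-0.26, 0.000321) fell, where each pair is the log2 fold change and the adjusted p in edgeR. These 4 genes also passed in the same direction when scaled by library totals.

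Of 18 ribosomal protein genes mutated in Diamond-Blackfan anaemia, a congenital failure of red cell production, 8 (44.4%) fell and 10 did not pass. The share that fell was 63.2% for all 76 members and 18.5% for all tested genes. The median of the 18 genes was -0.13 on the log2 scale. RPS19, the first of these genes to be identified, was at 1109.7, 1319 and 1289.8 CPM in controls and 1166, 1199.7 and 1128 CPM in knockouts (-0.09 log2, adjusted p = 0.264, edgeR). Its low control was replicate 1, and without that library RPS19 was at -0.17 with an adjusted p of 0.00662 in edgeR. In that fit 60 of the 76 members fell. Leaving out any other library gave RPS19 adjusted p-values from 0.261 to 0.642 in edgeR. RPS26, at the mRNA exit, was at 434, 454 and 431 CPM in controls and 401, 420.1 and 416 CPM in knockouts (-0.09 log2, adjusted p = 0.124, edgeR). Its libraries did not overlap.

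RPL38, RPL22 and RPL30 did not pass in the reported fit either. RPL38, required for axial patterning in the mouse, was at 858, 845 and 799 CPM in controls and 745, 781 and 773 CPM in knockouts (-0.12 log2, adjusted p = 0.0518, edgeR). RPL38 passed in DESeq2 (adjusted p = 0.0269) and limma-voom (adjusted p = 0.0380), but not with library totals alone (adjusted p = 0.424, edgeR). RPL22, an RNA-binding member lost in some leukaemias, was at 214, 220.0 and 212 CPM in controls and 190.0, 203 and 209 CPM in knockouts (-0.10 log2, adjusted p = 0.104, edgeR). RPL30, which binds its own transcript in yeast, was at 2169, 2282 and 2212 CPM in controls and 1994, 2122 and 2142 CPM in knockouts (-0.09 log2, adjusted p = 0.153, edgeR). All 3 genes were lower in every knockout library than in every control library. Exons of RPL22 overlap those of RNF207, so its counts are uncertain, as are those of RPL6, RPS13 and RPL36 for their neighbours.

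The highest values belonged to RPL36A, RPL10, RPS20 and RPS27. RPL10, an X-linked protein that is loaded late in maturation and is mutated in T-cell leukaemia, was at 903, 1018 and 1008 CPM in controls and 932, 998 and 1016 CPM in knockouts (0.01 log2, SE 0.06, adjusted p = 0.927, edgeR). RPS20, which like RPS10 is ubiquitinated on stalled ribosomes, was at 748, 813 and 796 CPM in controls and 749, 797 and 778 CPM in knockouts (-0.02 log2, SE 0.05, adjusted p = 0.775, edgeR). RPS27, a zinc-finger protein, was at 1697, 1756 and 1638 CPM in controls and 1598, 1732 and 1667 CPM in knockouts (-0.03 log2, SE 0.05, adjusted p = 0.704, edgeR). The groups overlapped for these 3 genes. RPL36A, near the tRNA exit site, was at 16, 13.3 and 16.2 CPM in controls and 15.7, 15.6 and 16.1 CPM in knockouts (0.06 log2, adjusted p = 0.539, edgeR), and RPS10, ubiquitinated by ZNF598 on stalled ribosomes, was at 8.61, 8.1 and 8.74 CPM and 8.79, 7.5 and 8.17 CPM (-0.06 log2, adjusted p = 0.614, edgeR). Both were counted at low levels, as was RPL17, and the exons of all 3 lie within read-through genes annotated in GENCODE 29 (RPL36A-HNRNPH2, RPS10-NUDT3 and RPL17-C18orf32), whose own entries hold 0 counts.

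To describe how the members shifted relative to each other, libraries were also scaled to the summed counts of the 76 genes. This scaling removes the shift common to the members by construction, so the counts on it cannot address that shift. The median log2 fold change was 0.01 for the members and 0.16 for all tested genes. On that scale 72 of the 76 did not pass, 1 fell and 3 rose, against 6.17% falling and 36% rising over all tested genes. The gene that fell was RPL12 (-0.11 log2, adjusted p = 0.0274, edgeR). Those that rose relative to the sum were RPL10 (0.16 log2, adjusted p = 0.00617), RPS20 (0.13, 0.0151) and RPS27 (0.12, 0.0196), all by edgeR.

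Correlations of the fold changes with level, length and base composition were weak. Across the 76 genes, which share the same 6 libraries and are not independent, Pearson's r of the log2 fold change was -0.14 with the log2 mean CPM, 0.01 with the log2 transcript length, -0.11 with the number of codons, -0.18 with GC content and 0.07 with the share of counts in pseudogenes. A correction for GC content and length over all genes moved the median to -0.10 and left 33 of the 76 genes falling (background 24%). Per kilobase of transcript model, levels were highest for RPS27 at 4684, RPL30 at 3966, RPL12 at 3919 and RPS18 at 3865 CPM per kilobase, and lowest for RPL17 at 30.3 and RPS10 at 14.1.

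**Figure D5:**
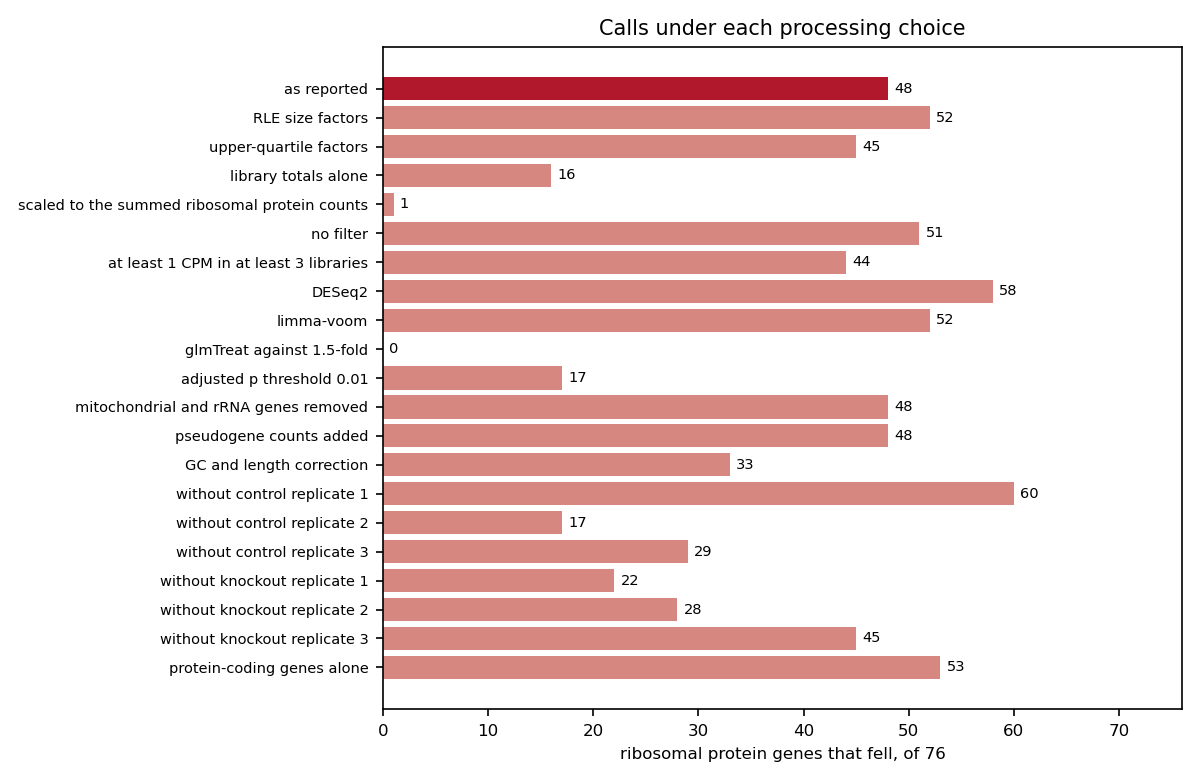
Number of the 76 ribosomal protein genes that fell (x axis, bars from 0 to 76) under each processing choice (y axis), with the reported fit in dark red. The count is 48 as reported, 44 to 58 with RLE or upper-quartile factors, other filters, DESeq2 or limma-voom, 16 with library totals alone, and 17 to 60 when 1 library is left out.

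Genes next to the family in function were counted in the same fit, in which 18.5% of all tested genes fell and 21.2% rose (11% and 28.3% with library totals alone), and 39.9% of other genes at 100 CPM or more fell. Of 9 tested paralogues and fused ribosomal proteins outside the naming rule, 2 fell and 1 rose, with a median of -0.04, and with library totals alone 1 fell and 2 rose. RPL22L1, the paralogue of RPL22, was at 170.2, 168 and 170.0 CPM in controls and 123, 124 and 134 CPM in knockouts and fell by 0.42 (SE 0.05, adjusted p = 5.73e-06, edgeR). This is a larger fall than that of any of the 76 genes, although no test of that difference was made. FAU, the fusion that yields RPS30, fell by 0.18 (adjusted p = 0.00467, edgeR), and was at -0.10 log2 when scaled by library totals (adjusted p = 0.0559, edgeR). RPS27L, a paralogue of RPS27, was at 103, 101 and 108 CPM in controls and 117, 111 and 109 CPM in knockouts, with every knockout above every control, and at 0.12 log2 (adjusted p = 0.0672, edgeR). Scaled by library totals, RPS27L was at 0.19 with an adjusted p of 0.00674 in edgeR. RPL3L, a muscle paralogue, rose (1.46 log2, adjusted p = 0.0213, edgeR) at a level of at most 0.314 CPM per library.

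Of 22 tested translation factors and other mRNAs known to carry a TOP tract, 9 fell and 0 rose, with a median of -0.13, beside 18.5% of all tested genes and 39.9% of other genes at 100 CPM or more that fell. They included NPM1, a nucleolar chaperone of ribosome assembly, at -0.26 log2 (adjusted p = 0.000517), the initiation factors EIF4B at -0.26 (0.000795) and EIF3A at -0.25 (0.00245), and the elongation factor EEF1B2 at -0.20 (0.00434), all by edgeR. Of the 22, 4 fell with library totals alone (background 11%). Of 15 chaperones and importers of ribosomal proteins 7 fell and 0 rose, with a median of -0.11 (background 18.5% and 21.2%). The importins IPO7 (-0.29 log2, adjusted p = 0.000111, edgeR) and TNPO1 (-0.30, 0.000351) and the RPS2 chaperones PDCD2 (-0.24, 0.000443) and PDCD2L (-0.44, 0.000211) were among them. Scaled by library totals, 6 fell and 2 rose (background 11% and 28.3%).

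Of 22 genes of mTORC1 signalling and TOP mRNA control, 8 fell and 2 rose, with a median of -0.05 (background 18.5% and 21.2%), and with library totals alone 6 fell and 3 rose (background 11% and 28.3%). The elongation factor kinase EEF2K fell by 0.57 (adjusted p = 2.24e-07, edgeR), the cap-binding repressor EIF4EBP1 by 0.47 (5.35e-05), MLST8 by 0.31 (0.000175) and MTOR by 0.23 (0.000712). Of 16 tested ubiquitin ligases and factors that act on stalled or collided ribosomes, 8 fell and 0 rose, with a median of -0.15 (background 18.5% and 21.2%, and 39.9% falling among other genes at 100 CPM or more), led by ZNF598 (-0.43 log2, adjusted p = 3.07e-06, edgeR), ASCC3 (-0.22, 0.00113), G3BP1 (-0.19, 0.00323) and GCN1L1 (-0.15, 0.015). Of these 16, 3 fell and 2 rose with library totals alone (background 11% and 28.3%), where GCN1L1 did not pass (-0.07 log2, adjusted p = 0.183, edgeR).

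Of 13 transcription factors reported at ribosomal protein promoters, 3 fell and 2 rose, with a median of -0.06 (background 18.5% and 21.2%), and with library totals alone 2 fell and 3 rose (background 11% and 28.3%). MYC was measured at 1814, 1769.6 and 1592 CPM in controls and 1090.1, 1136 and 1386 CPM in knockouts and fell by 0.52 (SE 0.08, adjusted p = 8.1e-05, edgeR). ELK4 (-0.26 log2, adjusted p = 0.00409, edgeR) and YY1 (-0.15, 0.0138) fell, and MYCN (1.96, 3.46e-06) and TBPL1 (0.31, 0.000193) rose, MYCN from at most 0.576 CPM in controls to at most 1.99 CPM in knockouts. YY1 did not pass when scaled by library totals (-0.07 log2, adjusted p = 0.183, edgeR). Whether the shift in MYC has a part in the ribosomal protein values was not tested.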

How the data were processed

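RNA was measured in 3 control and 3 OTX2 knockout libraries of D283. The authors deposited unnormalised read counts per gene symbol. STAR and hg38 are named per the submitters' processing notes, while the counting program, annotation, strand setting and library kit are not stated there. Genes were filtered with filterByExpr, scaled by TMM and tested with edgeR 4.0.16 in R 4.3.3 (quasi-likelihood F test, 4 residual degrees of freedom, Benjamini-Hochberg adjustment over 18420 genes, threshold 0.05). The procedure was tested on simulated data. Groups come from the genotype labels. Named genes were OTX2, the 8 lowest and 4 highest members, the 4 highest and 2 lowest per transcript length, members with set roles, and up to 4 genes of each list by p, and any other gene was named after its values were seen. Some genes of these lists are not reported here. The members, lists and tests were chosen with earlier results of these data known. Alternatives were other scalings, filters and tests (DESeq2 1.42.0, limma 3.58.1), a correction for GC content and length (GENCODE 29, 14963 genes), pseudogene counts added to their parents, each library left out, and 2 added after seeing the data. Transcript length is that of the shortest complete model with the main coding length, and a few such models are long. Counts without molecular identifiers do not represent independent molecules.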

Additional observations from a re-analysis of the deposited data

How the results depend on the processing

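With RLE or upper-quartile factors, other filters, DESeq2, limma-voom, mitochondrial and rRNA genes left out, added pseudogene counts, the correction for GC content and length, protein-coding genes alone, or without RPL17, RPS10, RPL36A and RPS16, between 33 and 58 ribosomal protein genes fell and 0 rose. Across these settings 10.2% to 24% of all tested genes fell and 12.6% to 25.5% rose. With library totals alone 16 fell (background 11%) and the summed level was at -0.074 on the log2 scale. At a threshold of 0.01 on the adjusted p 17 fell (background 12.4%), and 0 fell in edgeR's test against a 1.5-fold change (background 0.852%), as no member changed that much. Leaving out each library in turn gave 17 to 60 (background 14% to 19.3%). Scaled to their own summed counts, 1 fell and 3 rose, and the values of RPS27 (0.12), RPS20 (0.13), RPS27A (0.0041), RPS14 (0.011) and RPS4X (0.017) were above 0, since that scaling removes the common shift. Over all genes, TMM gave 3404 falls and 3908 rises, library totals alone 2034 and 5210, and the scaling to the members 1136 and 6625. No paired analysis was possible because the library titles number the samples from 1 to 6 and the groups share no replicate number. Depth was least for RPS10, with 2962 counts over the 6 libraries.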
